A study of Danio rerio with 6 samples.

Results

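The 9 genes described here make, break down, sense or bind retinoic acid. They were picked by symbol as a pathway, and are 9 of the 32057 genes in the count table. Aldh1a2 makes the acid, and cyp26a1, cyp26b1 and cyp26c1 break it down. Dhrs3a returns its precursor to storage, raraa, rarab and rarga are its receptors, and crabp2a binds it in the cell. The counts come from 6 single zebrafish embryos frozen whole at the 10-somite stage, of which 3 were wild type (WT) and 3 were mutant for 3 genes of the Pea3 family (3etv). The Pea3 genes encode ETS transcription factors that act downstream of fibroblast growth factor (FGF). The labels give no allele, clutch or parental line and do not say which Pea3 genes were mutated, so effects of genotype and of clutch or line cannot be told apart.

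Retinoic acid is made from vitamin A in a pair of steps. Retinol dehydrogenases such as Rdh10 oxidise retinol to retinal, which Dhrs3 reduces back to retinol, and Aldh1a enzymes oxidise retinal to retinoic acid. In the vertebrate trunk the acid comes mainly from the somites and lateral mesoderm, while Cyp26 enzymes clear it from the tailbud and from parts of the hindbrain and head. It enters the nucleus and acts through RAR receptors paired with RXR receptors on targets that include Hox genes. FGF signalling from the tailbud opposes retinoic acid along the trunk, and the question here was whether the balance of synthesis to breakdown genes was shifted in 3etv embryos.

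Gene counts totalled between 22446699 and 28841169 per embryo in WT and between 18484238 and 21865288 in 3etv. Levels are given as CPM, that is, counts brought to the same total per library with TMM factors. These are not divided by gene length and are therefore compared between embryos for the same gene, not between genes. Each of the 9 genes passed the low-count filter, with counts between 195 and 3335 per embryo. As a check of the genotype labels, etv5a and etv5b fell in 3etv by 1.52 and 1.69 on the log2 scale (edgeR adjusted p 1.82e-08 and 1.89e-08). etv1 fell by 1.33 (adjusted p 0.0082), and etv4, at -0.52, did not pass (adjusted p 0.057). The etv1 counts were low, from 8 to 45 per embryo.

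Of the 9 genes, 3 fell in 3etv, 0 rose and 6 did not pass the test, an edgeR adjusted p under 0.05 over all genes. The genes that fell were cyp26c1, raraa and crabp2a, and each kept between 76.35% and 80.98% of its WT level. Among all 18533 tested genes, 31.3% were called, 15.4% as lower and 15.9% as higher, so the 33.3% of members that were called is near the background. The members' median log2 fold change was -0.14, against 0.0035 over all tested genes. In these whole-embryo libraries, fewer cells that express a gene and less RNA per cell cannot be told apart.

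**Figure D1:**
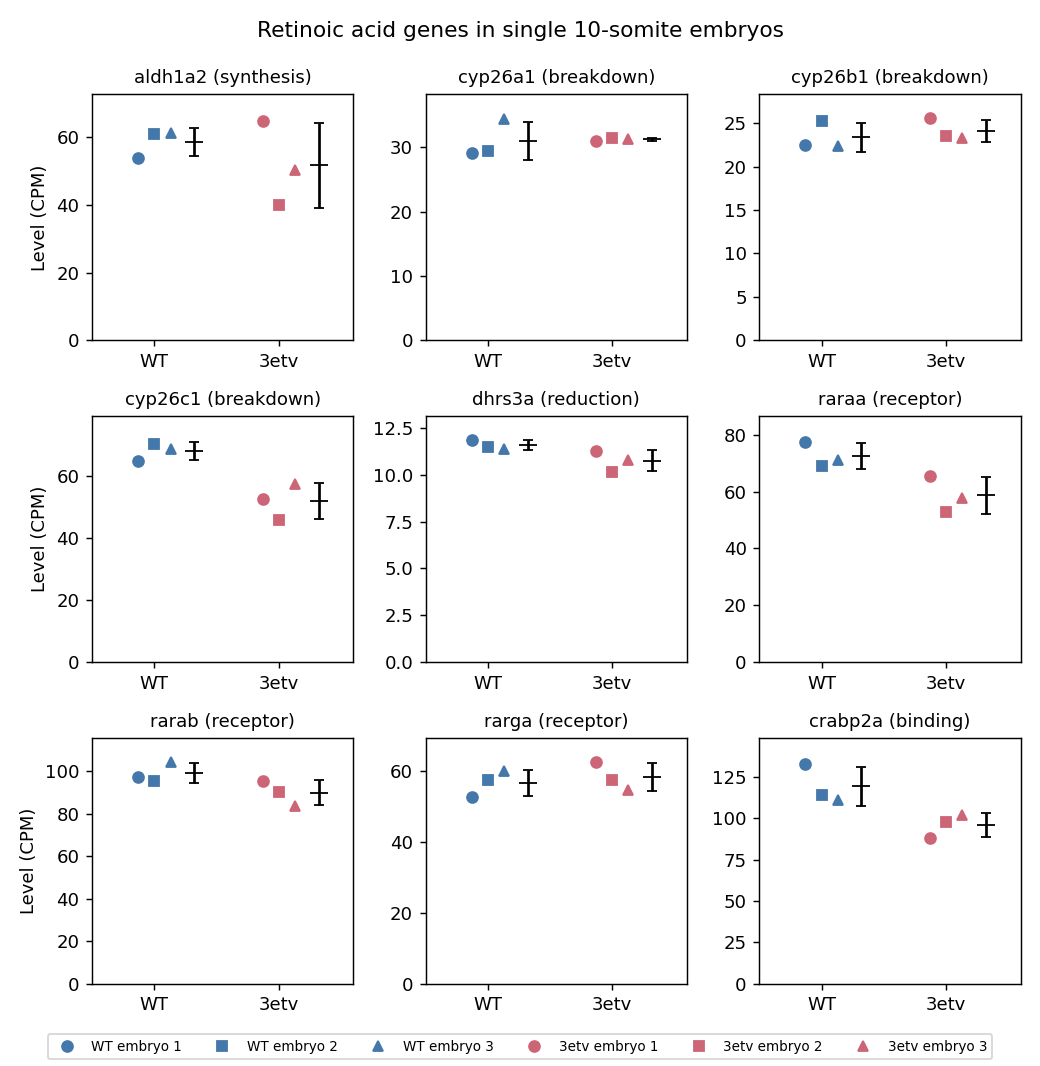
Level of each of the 9 genes in each embryo, in CPM on axes that start at 0. Symbols are embryos, and the bar beside each group is the mean with its SD over 3 embryos. The 3 levels of cyp26c1, raraa and crabp2a in 3etv lie below all 3 in WT, and aldh1a2 in 3etv spans 39.9 to 64.7 CPM.

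The synthesis gene was examined first. aldh1a2 (ENSDARG00000053493), the main retinal dehydrogenase of trunk mesoderm, had 53.8, 60.9 and 61.1 CPM in the WT embryos and 64.7, 39.9 and 50.3 CPM in the 3etv embryos. The 3etv embryos held both the highest and the lowest of the 6 values, so the groups overlapped. The means were 58.6 ± 4.14 CPM in WT and 51.6 ± 12.48 in 3etv (SD, n = 3 each). The difference of -0.19 on the log2 scale (SE 0.16, 95% interval -0.55 to 0.17) did not pass the test (edgeR adjusted p 0.41). The coefficient of variation was 7.06% in WT and 24.2% in 3etv, while counting alone gives 3.4% at the lowest aldh1a2 count. Its value turned on single embryos. Without 3etv embryo 1 aldh1a2 passed the test at -0.38 (edgeR adjusted p 0.019), and without 3etv embryo 2 the log2 fold change was -0.030 (adjusted p 0.88).

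Markers of the paraxial mesoderm, the tissue of presomitic mesoderm and somites, differed along with aldh1a2 among the 3etv embryos. Of the 11 listed markers, 9 fell in 3etv, 0 rose and 0 were at 0, so 81.8% were called against 31.3% of all tested genes. Among those that fell were ripply1 (log2 fold change -0.81), myf5 (-0.58), foxc1b (-0.59) and tcf15 (-0.85). The 11 markers together ranged from 805.5 to 859.9 CPM in WT. In 3etv embryos 1, 2 and 3 the sum was 674.4, 499.6 and 567.7 CPM. The 3etv embryos stood in the same order for the marker sum as for aldh1a2, with embryo 1 highest and embryo 2 lowest, but the WT embryos did not. WT embryo 1 had the lowest aldh1a2 and WT embryo 2 the lowest sum. Single markers such as myf5, at 54.2, 42.1 and 39.8 CPM in 3etv, also stood in another order. The part of this in the aldh1a2 values was not tested.

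Set against that sum, aldh1a2 was higher in 3etv. Its own level overlapped between groups (log2 fold change -0.19), so this ratio mainly reflects the lower marker sum. Of the 11 markers, meox1 and tbx6 add most counts to the sum. They went from 221.3 and 223.3 CPM on average in WT to 141.1 and 172.3 in 3etv. The log2 ratio of aldh1a2 to the summed markers was -3.99, -3.73 and -3.81 in WT and -3.38, -3.65 and -3.50 in 3etv, so each 3etv embryo lay above each WT embryo, with a mean difference of 0.34. Against single markers, the ratio was higher in 3etv without overlap for 6 of 11 and overlapped for the other 5. This ratio was chosen after the values were seen and has no test. The lateral and intermediate mesoderm markers summed to 150.25 ± 15.57 CPM in WT and 175.72 ± 8.65 in 3etv (SD, n = 3 each). pax2a adds most counts to that sum, and averaged 72.9 CPM in WT and 68.5 in 3etv. gata6 and gata5 averaged 12.5 and 16.6 CPM in WT and 26.7 and 24.4 in 3etv. Of the 9 markers, 7 had a log2 fold change above 0 and 2 below. The sum was higher in 3etv, unlike the paraxial sum, and aldh1a2 was not set against it. The direction of the ratio is therefore given for the paraxial markers only.

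The breakdown genes did not move together. cyp26a1 (ENSDARG00000033999), the Cyp26 enzyme of the tailbud and anterior neural plate and itself induced by retinoic acid, had 29.0, 29.4 and 34.4 CPM in WT and 30.9, 31.4 and 31.3 CPM in 3etv. The 3etv values lay within the WT range and close to each other. The log2 fold change was 0.011 (SE 0.085, 95% interval -0.17 to 0.20, edgeR adjusted p 0.94).

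cyp26b1 (ENSDARG00000077121), which clears retinoic acid in the hindbrain among other places, had 22.4, 25.3 and 22.4 CPM in WT and 25.5, 23.5 and 23.3 CPM in 3etv. The groups overlapped across nearly their whole range. The log2 fold change was 0.043 (SE 0.089, 95% interval -0.15 to 0.23, edgeR adjusted p 0.75).

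cyp26c1 (ENSDARG00000056029), which clears retinoic acid in the anterior hindbrain and head, was lower in every 3etv embryo. It had 64.9, 70.6 and 68.9 CPM in WT and 52.7, 45.9 and 57.7 CPM in 3etv, and the highest 3etv embryo lay below the lowest WT embryo. The means were 68.1 ± 2.91 and 52.1 ± 5.89 CPM (SD, n = 3 each). The log2 fold change of -0.39 (SE 0.083, 95% interval -0.57 to -0.21) passed the test (edgeR adjusted p 0.0031), and it passed in all 12 alternative fits.

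Within each embryo, cyp26c1 was set against the other breakdown genes. Relative to cyp26a1, its log2 ratio was 1.16, 1.26 and 1.002 in WT and 0.77, 0.55 and 0.88 in 3etv, without overlap. Relative to cyp26b1, it was 1.53, 1.48 and 1.62 in WT and 1.04, 0.97 and 1.31 in 3etv, also without overlap. The mean differences in these ratios were -0.41 and -0.44. A permutation test of 3 embryos against 3 cannot give a two-sided p below 0.1, and no p is given for ratios of chosen genes.

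Most hindbrain markers fell as well. Of 9 listed markers, 6 fell in 3etv, 0 rose, 3 did not pass and 0 were at 0. The called share of 66.7% compares with 31.3% over all tested genes. Those that fell included hoxb3a (log2 fold change -0.68), hoxa2b (-0.79), mafbb (-1.04) and egr2b (-0.56). epha4a, which adds most counts to the sum, went the other way, from 222.9 ± 3.76 to 243.4 ± 7.15 CPM (SD, n = 3 each), and did not pass (edgeR adjusted p 0.096). The summed level of all 9 ranged from 541.0 to 572.9 CPM in WT and from 466.9 to 489.3 CPM in 3etv. Relative to this sum, cyp26c1 was lower in 3etv without overlap, with a mean log2 difference of -0.17, which was -0.10 without 3etv embryo 2. This direction depends on epha4a being in the sum. epha4a had 219.9, 221.7 and 227.1 CPM in WT and 241.4, 251.3 and 237.4 in 3etv. The cyp26c1 ratio is therefore given for this sum only, and is not read as a fall beyond that of the other hindbrain markers. Relative to the same sum, cyp26b1 was higher without overlap, with a difference of 0.27. Its own level overlapped between groups (log2 fold change 0.043), so this ratio mainly reflects the lower marker sum. Against single hindbrain markers the picture for cyp26c1 was mixed, with its ratio higher in 3etv for 4 of 9 markers, lower for 2 and overlapping for 3. For cyp26b1 the ratio was higher for 6 of 9 and lower for 0. The ratios to hindbrain markers were chosen after the values were seen and have no test. The part of the markers in the fall of cyp26c1 was not tested.

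For cyp26a1 the nearest listed tissue was the tailbud. Of its 9 tested markers, msgn1 and cdx4 fell (log2 fold changes -0.87 and -0.28, edgeR adjusted p 9.2e-04 and 0.0040) and tbxta rose (0.35, adjusted p 0.029). The called share of 33.3% is near the 31.3% over all tested genes. tbxta lost its call without 1 embryo in 3 cases, WT embryo 2, WT embryo 3 and 3etv embryo 2, with adjusted p-values between 0.101 and 0.112. fgf8a, an FGF ligand gene in the tailbud list, had a log2 fold change of 0.13 (SE 0.069) that did not pass (edgeR adjusted p 0.16). This value is taken over the whole embryo, so the fgf8a level of the tailbud alone was not measured. The tailbud sum ranged from 572.4 to 692.8 CPM in WT and from 527.0 to 575.8 in 3etv, so the groups overlapped. Both entries of wnt8a were at 0 in every library. The reason for these values was not examined, so the expression of wnt8a is not judged from them. In its log2 ratio to the tailbud sum, cyp26a1 also overlapped between groups. The means were -4.34 ± 0.22 in WT and -4.16 ± 0.075 in 3etv (SD, n = 3 each). That ratio, too, was chosen after the values were seen.

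**Figure D2:**
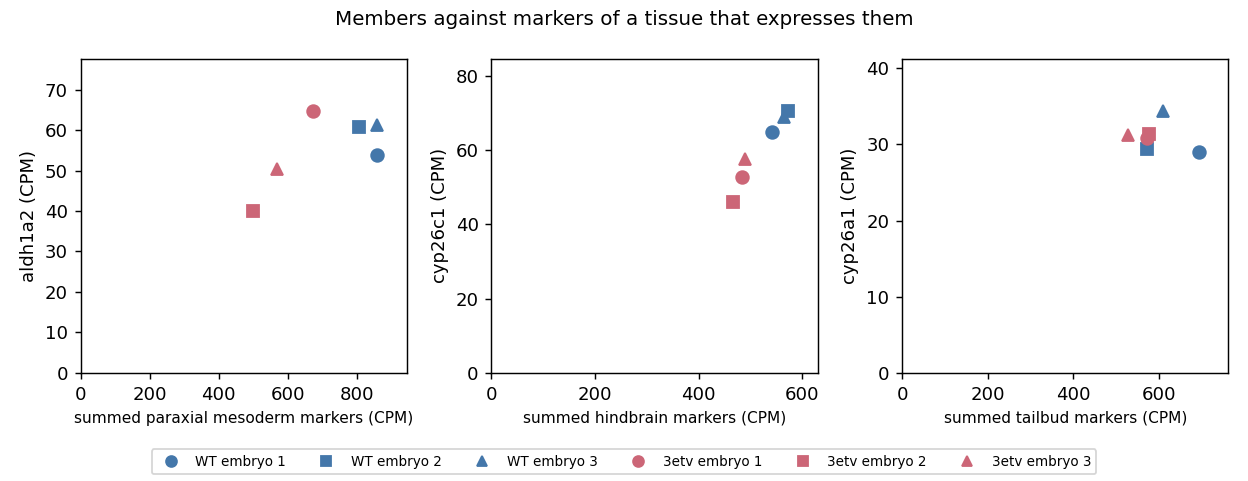
Level of aldh1a2, cyp26c1 and cyp26a1 in each embryo (CPM, vertical) against the summed CPM of the listed markers of a tissue known to express them (horizontal), on axes that start at 0. The 3etv embryos lie to the left of the WT embryos for paraxial and hindbrain markers, and aldh1a2 in 3etv embryo 1 is 64.7 CPM at a marker sum of 674.4 CPM.

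The balance of synthesis to breakdown was taken as the log2 ratio of aldh1a2 to the summed CPM of the 3 cyp26 genes in the same embryo. This ratio does not depend on library scaling, but it weights the cyp26 genes by their counts without regard to length. It was -1.11, -1.04 and -1.04 in WT and -0.75, -1.34 and -1.16 in 3etv. The WT embryos lay close together, and the 3etv embryos lay on both sides of them, embryo 1 above and embryos 2 and 3 below.

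The group means of the balance were -1.06 ± 0.042 in WT and -1.08 ± 0.30 in 3etv (SD, n = 3 each), a difference of -0.018. That difference was small beside the pooled SD of 0.21, which comes mostly from the 3etv embryos. The balance was not tested. The sum of the 3 cyp26 genes itself was lower in each 3etv embryo, at 109.1, 100.8 and 112.2 CPM against 116.4, 125.3 and 125.7 in WT. Without cyp26c1 it was not, at 55.3 ± 1.01 CPM in 3etv and 54.3 ± 2.66 in WT (SD, n = 3 each).

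The balance changed sign with the breakdown gene used. Against cyp26a1 alone the mean difference between groups was -0.22, against cyp26b1 alone -0.25 and against cyp26c1 alone 0.18, and the groups overlapped in each case. Without 3etv embryo 1 the difference against the sum was -0.18, and without 3etv embryo 2 it was 0.11. Adding aldh1a3, the Aldh1a enzyme of the eye, to the synthesis side gave 0.045, a choice made after the values were seen.

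**Figure D3:**
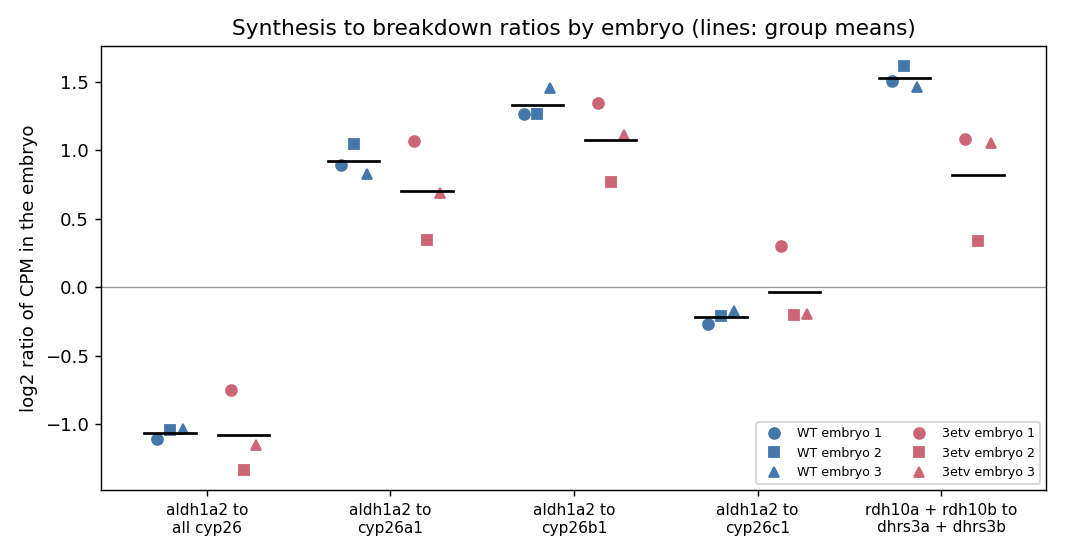
Log2 ratios of CPM within each embryo, with symbols for embryos and lines for group means. The ratio of aldh1a2 to all cyp26 genes has group means of -1.06 and -1.08 with the 3etv embryos widely spread, whereas the ratio of the rdh10 to the dhrs3 genes is lower in all 3 3etv embryos.

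Upstream of aldh1a2, dhrs3a (ENSDARG00000044982), a retinaldehyde reductase, had 11.9, 11.5 and 11.4 CPM in WT and 11.3, 10.2 and 10.8 CPM in 3etv. The 3etv embryos lay below WT, but by a small margin. The log2 fold change of -0.11 (SE 0.11, 95% interval -0.34 to 0.12) did not pass (edgeR adjusted p 0.47). Its paralogue dhrs3b, which was not among the 9, rose from 19.5 ± 1.87 to 27.0 ± 5.27 CPM (SD, n = 3 each, log2 fold change 0.48, edgeR adjusted p 0.014). dhrs3b lost its call without WT embryo 2 or 3etv embryo 2 (adjusted p 0.063 and 0.068).

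The retinol dehydrogenases of the first step were looked up beside the dhrs3 genes after their values were seen. rdh10a had 66.0, 66.2 and 63.4 CPM in WT and 51.6, 33.6 and 54.7 CPM in 3etv. It was lower in every 3etv embryo, but the log2 fold change of -0.49 (SE 0.16) missed the threshold in edgeR (adjusted p 0.053). It passed in 5 of 12 alternatives, with DESeq2 (adjusted p 0.0017), a mean of at least 50 counts (0.049), a replicate block (0.021), and without 3etv embryo 2 (-0.30, adjusted p 0.015) or 3etv embryo 3 (-0.62, adjusted p 0.020). rdh10b was lower without overlap and did not pass (-0.24, edgeR adjusted p 0.094). The log2 ratio of both rdh10 genes to both dhrs3 genes was 1.504, 1.61 and 1.46 in WT and 1.081, 0.34 and 1.05 in 3etv. The groups did not overlap in this ratio, and the mean difference of -0.71 corresponds to 0.613 times the WT ratio. Without 3etv embryo 2 the difference was -0.46.

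Among the receptors, raraa (ENSDARG00000056783) had 77.5, 68.9 and 71.0 CPM in WT and 65.6, 52.8 and 57.7 CPM in 3etv. Each 3etv embryo lay below each WT embryo. The log2 fold change was -0.30 (SE 0.083, 95% interval -0.48 to -0.13, edgeR adjusted p 0.014), and without 3etv embryo 2 it was -0.24 and did not pass (adjusted p 0.068). In RefSeq's gene order for GRCz12tu, raraa lies on the same chromosome as etv4 with 308 protein-coding genes between them, and cyp26a1 with 354, while the other 7 members share no chromosome with a Pea3 gene.

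rarab (ENSDARG00000034893), the second zebrafish copy of RAR alpha, had 97.1, 95.7 and 104.3 CPM in WT and 95.6, 90.4 and 83.9 CPM in 3etv. The lowest WT and the highest 3etv embryo nearly met, and the log2 fold change of -0.14 (SE 0.068, 95% interval -0.28 to 0.0079) did not pass (edgeR adjusted p 0.14). rarga (ENSDARG00000034117), an RAR gamma receptor, had 52.7, 57.5 and 59.8 CPM in WT and 62.6, 57.5 and 54.6 CPM in 3etv. Its groups overlapped, with a log2 fold change of 0.040 (SE 0.076, 95% interval -0.12 to 0.20, adjusted p 0.73).

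The fall of raraa was not shown to differ from rarab. Their log2 ratio overlapped between groups, at -0.45 ± 0.12 in WT and -0.62 ± 0.14 in 3etv (SD, n = 3 each). That of raraa to rarga did not overlap, at 0.56, 0.26 and 0.25 in WT and 0.068, -0.12 and 0.080 in 3etv. Reads shared between receptor paralogues could move such ratios, since the counting settings are not given in the sources used here.

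crabp2a (ENSDARG00000073978), a cellular retinoic acid binding protein, had 133.1, 114.1 and 111.0 CPM in WT and 88.2, 98.1 and 101.8 CPM in 3etv. All 3 3etv embryos lay below all 3 WT embryos. The means were 119.4 ± 11.98 and 96.0 ± 7.04 CPM (SD, n = 3 each). Its log2 difference was -0.31 (SE 0.080, 95% interval -0.49 to -0.14, edgeR adjusted p 0.0091), and it passed in all 12 alternative fits.

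The groups did not overlap for 5 of the 9 genes, all lower in 3etv, against 22.4% of all tested genes that were lower without overlap 22.7% that were higher and 45.1% in either direction. The 5 were cyp26c1, dhrs3a, raraa, rarab and crabp2a, of which dhrs3a and rarab did not pass the test. The summed level of all 9 was 540.3 ± 5.66 CPM in WT and 472.7 ± 23.68 in 3etv (SD, n = 3 each).

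**Figure D4:**
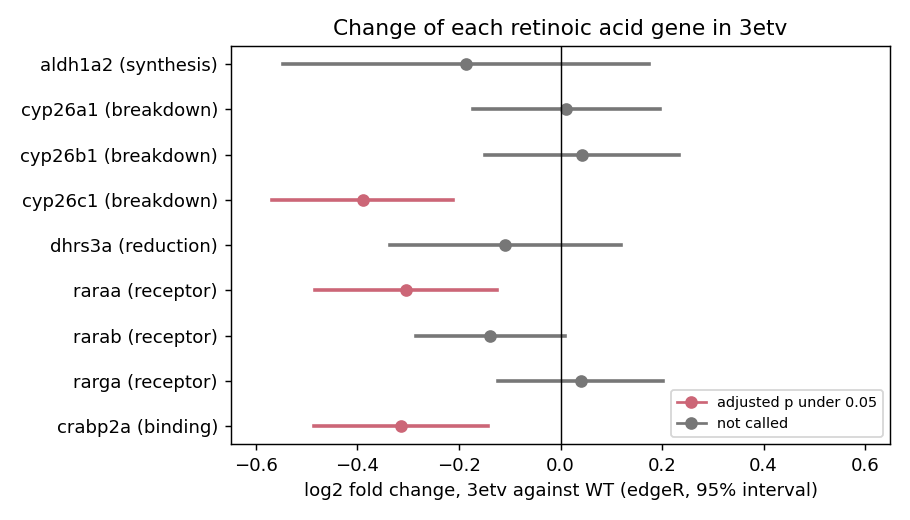
Log2 fold change of each of the 9 genes in 3etv against WT, with its 95% interval from the edgeR fit. The intervals of cyp26c1, raraa and crabp2a lie below 0, and the interval of aldh1a2 runs from -0.55 to 0.17.

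Other binding proteins and receptors of the pathway were compared from a list. Of 15 tested genes, 4 fell, 0 rose and 11 did not pass, with a median log2 fold change of -0.10, and 26.7% were called against the background of 31.3%. crabp2b, the paralogue of crabp2a, had 108.3, 95.004 and 108.8 CPM in WT and 54.4, 56.1 and 51.4 CPM in 3etv. Every 3etv embryo lay far below WT, and the gene fell by 0.95 on the log2 scale (SE 0.072, 95% interval -1.10 to -0.79, edgeR adjusted p 1.06e-06). crabp1b, another binding protein gene, fell by 1.52 on the log2 scale (adjusted p 0.0026).

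Among the RXR partner receptors, rxrga and rxrab fell, and the other tested RXR genes did not pass. rxrga had 10.1, 10.5 and 9.78 CPM in WT and 3.69, 5.15 and 4.81 CPM in 3etv, and fell by 1.15 on the log2 scale (SE 0.15, edgeR adjusted p 7.34e-05). rxrab fell by 1.12 (adjusted p 0.011), and lost its call without WT embryo 3 (adjusted p 0.052) or 3etv embryo 2 (adjusted p 0.053). It had only 15 to 22 counts per embryo in 3etv, and was not tested in the fit on a mean of at least 50 counts. rxrba, the RXR gene with the most counts, averaged 78.0 CPM in 3etv against 70.3 in WT, and its groups overlapped. Its log2 fold change was 0.15 (adjusted p 0.13). For rxrbb the log2 fold change was 0.092, while rxraa and rxrgb were lower at -0.30 and -0.12. A loss of RXR expression as a whole was therefore not shown. The corepressor gene ncor1, whose product binds RAR in the absence of its ligand, differed by 0.035 on the log2 scale, short of the threshold.

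Genes of vitamin A supply and storage moved in both directions. Of 15 tested, 3 fell, 4 rose and 8 did not pass, with a median log2 fold change of 0.18. That median rests on aldh8a1 alone, since the next lower gene in order, lratb.1, was at -0.17. The share called was 46.7%, against 31.3% over all tested genes. rbp4, the retinol carrier, had 6.33, 9.27 and 7.74 CPM in WT and 2.30, 3.31 and 3.32 CPM in 3etv, and fell by 1.39 on the log2 scale (SE 0.19, edgeR adjusted p 1.5e-04). lrata, an enzyme that esterifies retinol for storage, fell by 1.85 (adjusted p 3.41e-04), and rbp5, a cellular retinol binding protein, fell by 0.53 (adjusted p 0.0019). lrata had only 11 to 22 counts per embryo in 3etv, and was not tested in the fit on a mean of at least 50 counts. bco1, which cleaves beta-carotene to retinal, had 0.58, 1.37 and 0.84 CPM in WT and 4.02, 4.92 and 6.69 CPM in 3etv, a rise of 2.44 on the log2 scale (SE 0.29, adjusted p 5.33e-05). rbp2a, a retinol binding protein gene, rose by 1.40 (adjusted p 4.82e-04), and dhrs3b is given above. The fourth gene that rose, stra6, a retinol receptor, did so by 0.27 (adjusted p 0.042) and lost its call in 7 of 12 alternatives, among them the fits without WT embryo 2 or 3 and without 3etv embryo 2 or 3. Without WT embryo 2 or 3etv embryo 2, 2 supply genes rose.

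**Figure D5:**
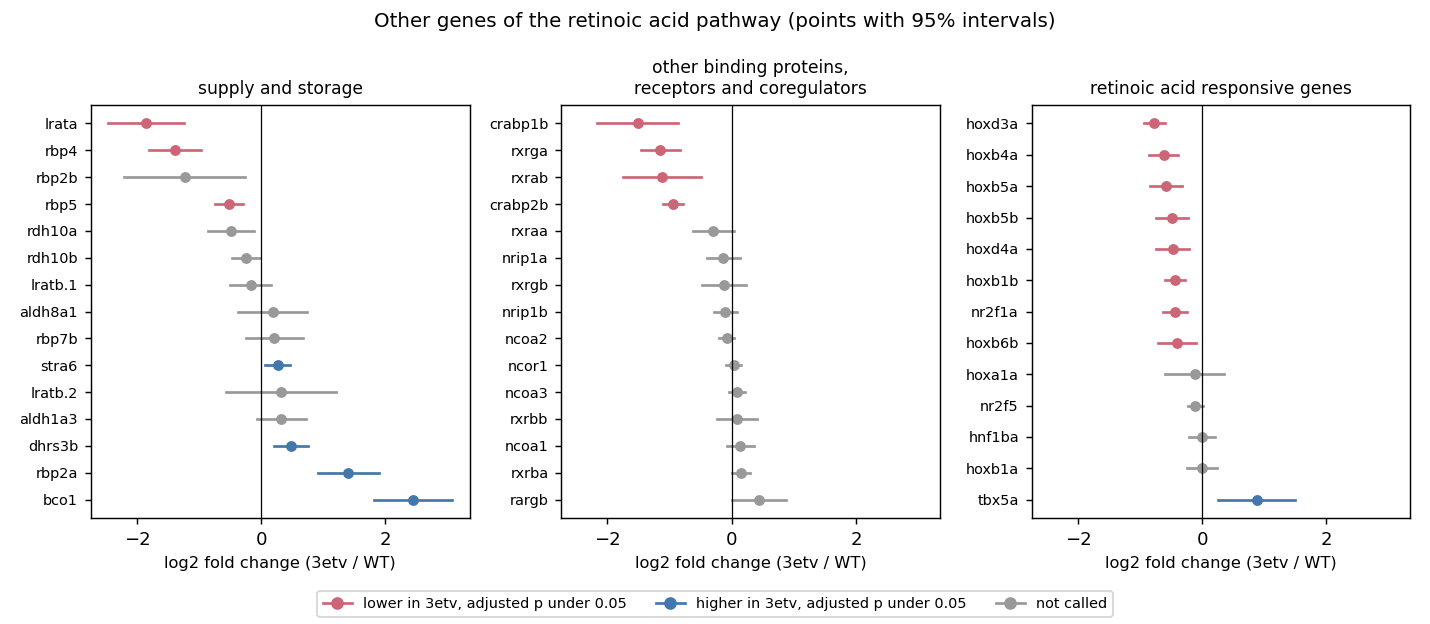
Log2 fold change with 95% interval for the tested genes of 3 pathway lists, colored by call. In the retinoic acid responsive list 8 of 13 genes are lower in 3etv and 1 is higher, whereas supply genes lie on both sides of 0.

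Genes known to respond to retinoic acid were then compared. Of 13 tested genes, 8 fell in 3etv, 1 rose and 4 did not pass, with a median log2 fold change of -0.43 against 0.0035 over all tested genes. The share that fell over all tested genes was 15.4%. Most genes of this list are Hox genes. The list leaves out cyp26a1, which is itself induced by retinoic acid. That gene did not pass (log2 fold change 0.011, edgeR adjusted p 0.94). The counts and the median therefore describe the listed genes only, and a change in the response to retinoic acid in general was not tested. hoxd3a had 55.8, 51.6 and 52.2 CPM in WT and 34.1, 28.8 and 30.9 CPM in 3etv, and fell by 0.77 on the log2 scale (SE 0.080, edgeR adjusted p 1.53e-05). hoxb1b fell by 0.44 (adjusted p 7.16e-04), hoxb4a by 0.62 (adjusted p 9.12e-04), hoxb5a by 0.58 (adjusted p 0.0026) and hoxb5b by 0.48 (adjusted p 0.0081). The nuclear receptor gene nr2f1a fell by 0.43 (adjusted p 0.0029). These 6 genes passed in all 12 alternative fits. Less firm were hoxd4a (-0.48, adjusted p 0.011) and hoxb6b (-0.40, adjusted p 0.044). hoxd4a lost its call without 3etv embryo 2 (adjusted p 0.056). hoxb6b lost its call with upper-quartile scaling, DESeq2 and a replicate block. It also did so in each fit without 1 embryo except that without 3etv embryo 1. The number that fell was 6 without 3etv embryo 2 and 7 or 8 in the other alternatives.

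Within the same list the exceptions were as plain. hoxb1a, which marks the fourth rhombomere, differed by 0.0050 on the log2 scale (SE 0.11, edgeR adjusted p 0.98), and hnf1ba, a caudal hindbrain factor, by 0.0013 (SE 0.098, adjusted p 0.99). tbx5a, a heart and fin field factor, rose by 0.88 (adjusted p 0.034). It lost that call in 4 of the 6 fits without 1 embryo, those without WT embryo 1 or 2 or 3etv embryo 2 or 3 (adjusted p between 0.059 and 0.135). It also did so with DESeq2 and a replicate block (adjusted p 0.062 and 0.051). tbx5a had 22 to 45 counts per embryo, and was not tested in the fit on a mean of at least 50 counts. Most listed genes are also expressed in the hindbrain or somites, whose markers fell as given above. Of the hindbrain markers that fell, hoxa2b, hoxb2a and hoxb3a are themselves Hox genes, and egr2a, egr2b and mafbb are not. The part of the hindbrain and somite markers in the fall of the listed Hox genes was not tested.

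Markers of 2 further regions differed from this pattern. Of 8 eye and forebrain markers 1 was called, rx3, which rose by 1.02 (edgeR adjusted p 2.31e-05). Of 9 lateral and intermediate mesoderm markers, 4 rose, 0 fell and 5 did not pass. The called shares were 12.5% and 44.4%, against 31.3% over all tested genes. The 4 mesoderm markers that rose were gata6 (log2 fold change 1.11, adjusted p 0.0012), gata5 (0.57, adjusted p 0.022), gata4 (0.85, adjusted p 0.028) and lhx1a (0.45, adjusted p 0.034). Without WT embryo 2 or without 3etv embryo 2, gata6 alone of these passed. gata4 also lost its call without 3etv embryo 1, gata5 without WT embryo 3, and lhx1a without WT embryo 3 or 3etv embryo 3. gata4 lost it with DESeq2 too (adjusted p 0.0504), and lhx1a with a replicate block (adjusted p 0.066). gata4 had 25 to 51 counts per embryo, and was not tested in the fit on a mean of at least 50 counts.

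Over the 6 embryos, the genes whose log2 CPM was most like that of aldh1a2, out of 9186 genes at or above 10 CPM on average, were eme1, gabpa and ktn1 (Pearson's r 0.99, 0.98 and 0.98). For cyp26a1 they were hoxb1a, fam222bb and coq8b (r 0.96, 0.96 and 0.93). The embryos share library and genotype between all genes, and 13 genes reached an r of 0.95 with aldh1a2 and 2 with cyp26a1. The named genes are the top of 9186 compared over 6 embryos. Whether their likeness exceeds what that many comparisons give was not tested. None of these 6 genes passed the test between genotypes, but they were picked for likeness to aldh1a2 and cyp26a1, which did not pass either.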

How the data were processed

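The authors deposited 1 table of raw counts per Ensembl gene, whole numbers without normalization. Per the submitters' processing notes, STAR and HTSeq were used with build GRCz11, and no settings are given in the sources used here. Per the labels' protocols, single embryos gave strand-specific poly-A libraries. The header holds a space in place of a tab, so columns were matched to sample titles by the order of names. The 5 summary entries were left out. Reads in genes were 39.7% to 41.7% per library, and 52.8% to 53.6% were entered under no feature. Another 5.12% to 6.38% were entered as not uniquely aligned and 0.325% to 0.355% as ambiguous.

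Genes were filtered (filterByExpr), scaled by TMM and tested in R 4.3.3 with edgeR 4.0.16 (robust quasi-likelihood, genotype as sole term), with Benjamini-Hochberg adjustment over 18533 genes and a threshold of 0.05. The method was tested on simulated data. Standard errors were taken from the F statistics. Alternatives were other scalings, DESeq2 1.42.0, other filters, each embryo left out and a replicate block. Embryos with the same number are different animals. p-values set the genotype difference against the spread between embryos within a group, with that spread moderated over all tested genes.

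The members and lists were chosen with earlier results of these data known. Named genes were the 9 members, up to 6 called genes per pathway list and up to 4 per marker list by adjusted p, and the 3 genes most like aldh1a2 and cyp26a1. Any further gene, such as rdh10a, rargb or tbx5a, was picked with its values in view. lratb was not matched by symbol, and some listed genes are not reported here. No coding lengths were used, so the balance weighted by length was not computed. Within groups, libraries differed by at least 3.6 chi-square units per degree of freedom.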

Additional observations from a re-analysis of the deposited data

How the results depend on the processing

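Between 2 and 4 of the 9 genes were called in each fit without 1 embryo, and 3 in every other alternative, replicate block included. aldh1a2 passed in 1 of 12 alternatives, without 3etv embryo 1 (-0.38), and raraa failed in 1 of 12, without 3etv embryo 2 (-0.24). In both cases fewer samples were fitted. The sign of cyp26a1 turned to -4e-04 without a low-count filter, and to -0.033 and -0.027 without WT embryo 1 or 2, in a range from -0.033 to 0.091 over fits without 1 embryo. That of rarga turned to -0.011 without WT embryo 1 and without 3etv embryo 1, in a range from -0.011 to 0.085. Neither gene passed in any fit, so their directions are not resolved. The balance moved to -0.25 with cyp26b1 as the sole breakdown gene, and ranged from -0.18 to 0.11 when 1 embryo was left out.

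Counts of genes called in the other lists, both directions together, stayed within 1.5 times with the exceptions below. By direction, the number of supply genes called higher went from 4 to 2 without WT embryo 2 or 3etv embryo 2, and the sole gene that rose in the responsive and in the tailbud list lost its call in several fits. Eye and forebrain markers called were 2 without a low-count filter and between 1 and 4 without 1 embryo, against 1. Lateral and intermediate mesoderm markers called were between 1 and 4 without 1 embryo, against 4. The cause was not tested. Over all genes, 4524 were called with the replicate block, 6470 without a low-count filter and 5178 with DESeq2, against 5801. Deviations of same-numbered embryos from their group means correlated at -0.37, -0.035 and -0.33, so same-numbered embryos were not treated as pairs. The balance weighted by coding length was not run.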

Other observations

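The makeup of each gene family by counts was also compared, as a description with no test. cyp26c1 held 55.8%, 56.4% and 54.8% of the summed cyp26 CPM in WT and 48.3%, 45.6% and 51.4% in 3etv. The groups did not overlap, and both other cyp26 genes held a larger share in 3etv. Shares add to a whole, so the fall of cyp26c1 by itself raises the others. cyp26a1 and cyp26b1 were not called (log2 fold changes 0.011 and 0.043), and the shares restate the change in cyp26c1. These shares are not corrected for length. Among the 4 RAR genes, rargb, a copy of RAR gamma that was not among the 9, held 1.14% ± 0.12 in WT and 1.69% ± 0.22 in 3etv (SD, n = 3 each). rargb itself was higher in every 3etv embryo, but its log2 fold change of 0.44 did not pass (edgeR adjusted p 0.12).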
